A study of Mus musculus with 14 samples.

Results

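The miR-191 and miR-425 cluster is a pair of microRNA (miRNA) hairpins that lie next to each other on mouse chromosome 9 and give 4 mature miRNAs, mmu-miR-191-5p, mmu-miR-191-3p, mmu-miR-425-5p and mmu-miR-425-3p, written here without the species prefix. Its members were chosen by name in the authors' table of mature miRNAs, and all 4 were present among 1695 names. They were counted in small extracellular vesicles, membrane-bound particles shed by cells. The vesicles were collected from primary neutrophils, the Ly6G-positive fraction of marrow from female wild-type BALB/c mice. The control group was kept for 48 h with DMSO, the solvent, and the treated group for 48 h with 10 µM 27-hydroxycholesterol (27HC), a cholesterol metabolite. Each group had 7 libraries, numbered 1 to 7. The labels do not say whether the libraries came from separate animals or pools, so the p-values measure only the spread between these libraries. The age of the mice was not given in the sources used here.

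A miRNA hairpin is cut into a short duplex, of which 1 strand, the guide, is loaded into an Argonaute protein and directs it to messenger RNAs through the seed, bases 2 to 8 from the 5′ end. The other strand is usually degraded and is found at much lower levels. The miR-191 and miR-425 hairpins are close enough to be made from 1 primary transcript, and the human cluster lies in an intron of DALRD3. The cluster is known for its response to estrogen receptor signalling in breast cancer cells, and 27HC is known as a ligand of estrogen receptors and of liver X receptors. miR-191-5p and miR-425-5p are both in common use as reference miRNAs when small RNA from blood or vesicles is normalised.

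The sequences of the 4 mature miRNAs are shown with the seed in capitals, because the seed decides which messenger RNAs each can pair with. They were taken from RefSeq (GRCm38.p6), which held all 4, each at 1 position in the genome, and run 5′ to 3′.
miR-191-5p: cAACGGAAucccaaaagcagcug
miR-191-3p: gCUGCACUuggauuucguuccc
miR-425-5p: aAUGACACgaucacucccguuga
miR-425-3p: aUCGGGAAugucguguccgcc
No seed was shared between members. Of the 1679 mature mouse names in the RefSeq table, 1 other held a member's seed, miR-489-3p with that of miR-425-5p. miR-489-3p had 1 count in all libraries together, so it was not tested. The members are 21 to 23 bases long.

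The hairpins are shown with both mature arms in capitals, because the counts compare the arms of a hairpin and the hairpins with each other.
Mir191: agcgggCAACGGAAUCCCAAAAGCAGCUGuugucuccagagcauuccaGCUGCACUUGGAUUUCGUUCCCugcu
Mir425: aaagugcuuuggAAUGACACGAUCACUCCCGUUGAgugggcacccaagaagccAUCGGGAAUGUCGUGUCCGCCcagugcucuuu
In GRCm38 Mir191 lies at chr9:108568319-108568392 and Mir425 at chr9:108568777-108568861, both on the plus strand and 384 bases apart. The span of the protein-coding gene Dalrd3 in RefSeq, 108567484 to 108572773, holds both hairpins. In GENCODE M21 both lie in an exon of a non-coding gene, 4833445I07Rik, that covers its whole span, 108567533 to 108569174. Other exons listed for this gene, 108567893 to 108568180 and 108568484 to 108568774, hold neither hairpin. In that annotation Dalrd3 starts downstream at 108569886. GENCODE also places a predicted miRNA gene, Gm24083, on the strand opposite to Mir191. The submitters' processing notes name the build GRCm39, so these positions describe the annotation only.

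Library totals ran from 112914 to 871189 counts, from 229324 upward in replicates 1 to 4 and up to 252014 in replicates 5 to 7. Replicate numbers 1 to 4 and 5 to 7 separate the whole profiles in both groups, for a reason that the labels do not give. The comparisons of the members and of their ratios are therefore also given within each set. Those of other named miRNAs are given over all libraries only. All 4 miRNAs listed as neutrophil or myeloid markers, arms of miR-223 and miR-142a, were present. Their summed level was 83291 to 216664 counts per 1000000 counts (CPM) in DMSO and 113054 to 149157 CPM in 27HC libraries. The miR-142 locus is active across blood cell types, so its arms do not mark myeloid cells alone. Markers of other sources were also present. The summed CPM in DMSO and 27HC libraries ran from 505.2 to 1062 and from 729.5 to 1126 for 4 erythroid markers, from 540.4 to 1042 and from 519.5 to 1130 for 2 platelet or endothelial ones, from 433.8 to 1227 and from 454.5 to 1235 for 4 stromal ones, and from 187.8 to 470.6 and from 287.6 to 521.6 for 5 epithelial ones. The liver miRNA miR-122-5p stood at 2476 to 4587 and at 1895 to 3672 CPM. None of the 22 markers was at 0 in every library.

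The cluster held 0.749 ± 0.111% of all counts in DMSO and, with 27HC, 0.671 ± 0.110% (SD, n = 7), and nearly all of it came from the 5p arms. The lowest, median and highest shares were 0.593%, 0.832% and 0.839% in DMSO and 0.555%, 0.627% and 0.875% in 27HC libraries. The groups overlapped. The exact binomial 95% interval of the share was 0.549% to 0.640% in the shallowest library, DMSO replicate 5, and 0.813% to 0.851% in the deepest, DMSO replicate 3. These intervals cover counting error only. Within DMSO, replicates 1 to 4 held 0.835 ± 0.00291% (SD, n = 4) and replicates 5 to 7 held 0.634 ± 0.0437% (SD, n = 3). In 27HC libraries these sets held 0.727 ± 0.115% (SD, n = 4) and 0.595 ± 0.0368% (SD, n = 3).

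Levels are given in CPM with library sizes scaled by the trimmed mean of M-values (TMM), and the 5p arms were far above the 3p arms. miR-425-5p was the highest, at 4046 ± 992 CPM in DMSO and, with 27HC, at 4154 ± 800.3 CPM (SD, n = 7), rank 30 and rank 29 among the 1695 names by mean CPM. miR-191-5p followed at 3431 ± 885 CPM and 2530 ± 301 CPM, rank 35 and rank 44. The mean ± SD of these arms overlapped in DMSO and did not with 27HC. The 3p arms were scarce. miR-425-3p stood at 76.3 ± 25.6 and 67.1 ± 19.8 CPM, and miR-191-3p at 55.2 ± 19.3 and 58.7 ± 27.2 CPM. The mean ± SD of the 3p arms overlapped in both groups. All 4 passed the filter on low counts over the 14 libraries.

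**Figure D1:**
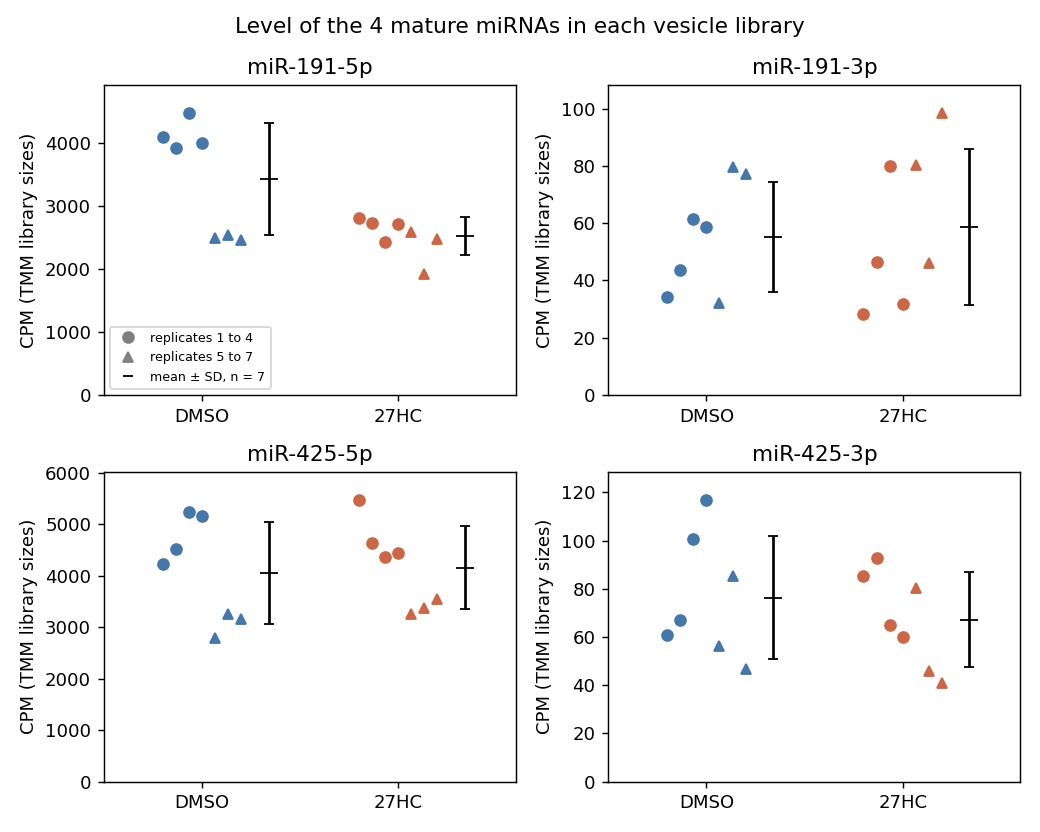
CPM of each mature miRNA (vertical axis, TMM library sizes, each panel from 0) in DMSO and 27HC libraries; each point is 1 library, circles are replicates 1 to 4, triangles replicates 5 to 7, and the black mark is the mean with its SD (n = 7). The miR-191-5p values of DMSO replicates 1 to 4 (3934 to 4481 CPM) lie above all other libraries, while the groups of miR-425-5p overlap over most of their range.

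miR-191-5p, the major arm of Mir191, was lower in vesicles from 27HC-treated cells, by a margin that passed the test in replicates 1 to 4 and, over all libraries, passed it only under some settings. In DMSO its CPM was 4094, 3934, 4481 and 3998 in replicates 1 to 4 and 2502, 2548 and 2461 in replicates 5 to 7. With 27HC it was 2817, 2741, 2430 and 2722 in replicates 1 to 4 and 2597, 1928 and 2477 in replicates 5 to 7. All 7 of the 27HC libraries were below the DMSO median of 3934 CPM, but only 2 were below the lowest DMSO library, so the groups overlapped. Groups that did not overlap were found for 5.44% of the tested names. In such bulk libraries, fewer vesicles from a cell type and less of a miRNA per vesicle cannot be told apart. The overlap came from DMSO replicates 5 to 7, which were at the level of the 27HC libraries.

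Over all 14 libraries the log2 fold change of miR-191-5p was −0.44 (SE 0.15), with an unadjusted p of 0.0102 and an adjusted p of 0.0736 in edgeR's quasi-likelihood test. It was not called at an adjusted p under 0.05, a threshold that 12.6% of the 239 tested names passed, 8.79% of the 239 in the lower direction. The other 3 members were not called either. When the set of replicates was added to the model, its log2 fold change was −0.41 and its adjusted p 0.00844 in the same test, which called 16.3% of the names. It was also called with upper quartile scaling (edgeR adjusted p 0.0188), with library totals only (0.0206), with scaling to 10 reference miRNAs, chosen after seeing the data (0.0372), and with the replicate number as a block (0.0315). Without DMSO replicate 6 the adjusted p was 0.0318 and without DMSO replicate 7 it was 0.0403, so that leaving out either of them changed the call. Without DMSO replicate 1, 3 or 4 the edgeR adjusted p rose to 0.224, 0.274 and 0.189. In total miR-191-5p was called in 2 of 14 fits with 1 library left out and under 5 of 13 other settings. With the log2 library total as a covariate the log2 fold change was −0.29, with an adjusted p of 0.121.

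Within replicates 1 to 4, miR-191-5p fell from 4127 ± 245 CPM to 2678 ± 170 CPM (SD, n = 4). Each of the 4 libraries with 27HC was below the lowest DMSO library of the set, and the share of all names so separated there was not counted. The fold change of −0.56 on the log2 scale (SE 0.092) had an adjusted p of 0.00159 in edgeR, in a set where 17.4% of the tested names were called and 10.7% were called lower. It stayed between −0.63 and −0.55 when any 1 of the 8 libraries was left out, with edgeR adjusted p-values up to 0.00811. Within replicates 5 to 7 the values were 2504 ± 43.7 CPM in DMSO and 2334 ± 357 CPM with 27HC (SD, n = 3), and the groups overlapped. There the log2 fold change was −0.092 (SE 0.15, 95% interval −0.43 to 0.25) and was not called, with an edgeR adjusted p of 0.839, where 6.06% of the tested names were called and 3.54% were called lower. It was −0.015 without 27HC replicate 6 and −0.16 without 27HC replicate 5.

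The 27HC effect on miR-191-5p was 0.52 higher on the log2 scale in replicates 5 to 7 than in replicates 1 to 4 (SE 0.15). The interaction term that tests this difference had an unadjusted p of 0.00401, the fifth lowest rank among the tested names, and an edgeR adjusted p of 0.172. It was therefore not called, and the interaction called 0 of 239 names, with 24 at an unadjusted p under 0.05.

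Both miRNAs listed as lymphoid markers, miR-150-5p and miR-155-5p, were called lower with 27HC over all libraries, where 8.79% of all tested names were. Their summed level was 216.5 to 546.4 CPM in DMSO and 90.2 to 213.4 CPM in 27HC libraries. The groups overlapped in each of these miRNAs alone, and 5.44% of all tested names had groups that did not overlap. Whether these miRNAs came from lymphoid cells was not tested. The other arm of the miR-150 hairpin, miR-150-3p, which is outside the list and was picked after its value was seen, had a log2 fold change of 1.22 and was not called (edgeR adjusted p 0.103). Of the 4 miRNAs in the neutrophil or myeloid list, the 2 arms of miR-142a were called lower as well, while miR-223-3p at −0.26 and miR-223-5p at 0.17 were not called. No tested marker of the other lists was called, but only 1 of 4 erythroid, 2 of 4 stromal and 3 of 5 epithelial markers were tested. The part of the other cell types in the level of miR-191-5p was not tested.

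miR-425-5p, the major arm of Mir425, showed no called difference in any set. In DMSO its CPM was 4223, 4512, 5235 and 5157 in replicates 1 to 4 and 2782, 3254 and 3162 in replicates 5 to 7. With 27HC it was 5469, 4629, 4362 and 4432 in replicates 1 to 4 and 3263, 3374 and 3551 in replicates 5 to 7. DMSO libraries ran from 2782 to 5235 CPM and 27HC libraries from 3263 to 5469 CPM, so the groups overlapped over most of their range. In both groups all libraries of replicates 5 to 7 lay under all of replicates 1 to 4. The log2 fold change over all libraries was 0.038 (SE 0.16, 95% interval −0.30 to 0.37), with an edgeR adjusted p of 0.934. Its sign changed with upper quartile scaling and with scaling to 10 reference miRNAs, to −0.042 and −0.069. It was 0.22 with the log2 library total as a covariate (edgeR adjusted p 0.121) and 0.14 with names of a mean count of at least 100 only (edgeR adjusted p 0.464).

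Within replicates 1 to 4, miR-425-5p stood at 4782 ± 494 CPM in DMSO and 4723 ± 510 CPM with 27HC (SD, n = 4). Its log2 fold change there was 0.051 (SE 0.11, adjusted p 0.770 in edgeR). Within replicates 5 to 7 it stood at 3066 ± 250 and 3396 ± 145 CPM (SD, n = 3). Each of the 3 libraries with 27HC was above the highest DMSO library of that set, and the share of all names so separated there was not counted. With 3 libraries against 3 the smallest possible exact permutation p is 0.1. The log2 fold change of 0.16 (SE 0.12) was not called, with an edgeR adjusted p of 0.629. The interaction term had an edgeR adjusted p of 0.685.

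**Figure D2:**
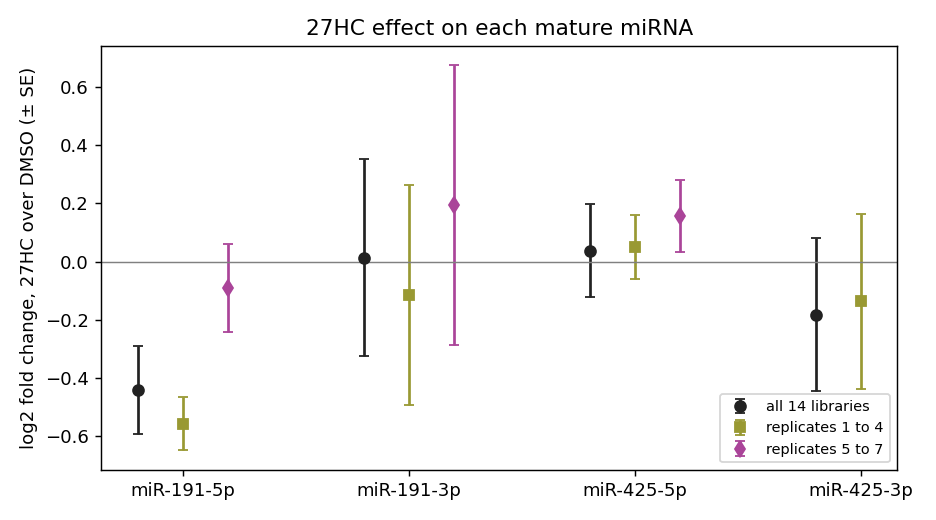
Log2 fold change of 27HC over DMSO (vertical axis, ± SE, edgeR) for each mature miRNA, over all 14 libraries and within each set of replicates; miR-425-3p was not tested in replicates 5 to 7. The value of miR-191-5p in replicates 1 to 4, −0.56, is the only one called, and the bars of the 3p arms are the widest.

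The minor arms had few counts and wide intervals, and no difference was called. miR-191-3p had 4 to 45 counts in a DMSO library and 6 to 16 in a 27HC library. Its CPM in DMSO was 34.1, 43.7, 61.3, 58.5, 32.1, 79.6 and 77.1 in replicates 1 to 7. With 27HC it was 28.4, 46.4, 79.8, 31.6, 80.2, 45.9 and 98.4. The highest and the lowest of the 14 libraries both belonged to 27HC, and the groups overlapped. Its log2 fold change was 0.013 (SE 0.34, 95% interval −0.70 to 0.73, edgeR adjusted p 0.980), and its sign changed under several scalings. Replicates 1 to 4 alone gave −0.11 and replicates 5 to 7 alone 0.19, and neither was called.

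miR-425-3p had 7 to 74 counts in a DMSO library and 5 to 36 in a 27HC library. Its CPM in DMSO was 60.7, 67.2, 100.9, 117, 56.1, 85.3 and 46.9 in replicates 1 to 7. With 27HC it was 85.2, 92.8, 64.9, 60.1, 80.2, 45.9 and 41.0. The 2 highest libraries were DMSO replicates 4 and 3, and the 2 lowest were 27HC replicates 7 and 6. The log2 fold change was −0.18 (SE 0.26, 95% interval −0.74 to 0.37, edgeR adjusted p 0.792), and −0.14 within replicates 1 to 4. In replicates 5 to 7 this miRNA did not pass the filter on low counts.

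A ratio of counts inside a library does not depend on how libraries are scaled, and it asks whether the arms and the hairpins keep their proportions. The tested log2 ratios carry a small prior count that is scaled with the library size. It therefore moves the ratios to the scarce 3p arms more than the ratio of the major arms. There were 3 such ratios, compared between the groups by exact permutation of the libraries (two-sided, every split into 7 and 7), with p-values adjusted over the 3.

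The balance between the major arms shifted with 27HC. The count of miR-191-5p divided by that of miR-425-5p was 0.969, 0.872, 0.856 and 0.775 in DMSO replicates 1 to 4 and 0.899, 0.783 and 0.778 in DMSO replicates 5 to 7. With 27HC it was 0.515, 0.592, 0.557 and 0.614 in replicates 1 to 4 and 0.796, 0.571 and 0.697 in replicates 5 to 7. Of the 7 libraries with 27HC, 6 were below the lowest DMSO library, and the exception was 27HC replicate 5. miR-425-5p outnumbered miR-191-5p in every library of both groups. Put as shares of the cluster, miR-191-5p made up 45.0 ± 2.29% of its counts in DMSO and, with 27HC, 37.4 ± 3.28% (SD, n = 7), and miR-425-5p 53.2 ± 1.85% and 60.7 ± 3.67%.

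On the log2 scale the ratio of miR-191-5p to miR-425-5p was −0.24 ± 0.12 in DMSO and, with 27HC, −0.70 ± 0.21 (SD, n = 7). The exact permutation p of this difference, −0.46, was 0.00233 (0.00699 adjusted), where the smallest possible is 0.000583. With libraries exchanged only within the sets of replicates, the exact permutation p was 0.00429 (adjusted 0.0129). Within replicates 1 to 4 the difference was −0.61, with 4 of 4 libraries with 27HC below the lowest DMSO library and an exact permutation p of 0.0286, the smallest possible there (adjusted 0.0857). Within replicates 5 to 7 it was −0.26, with an exact permutation p of 0.3, where the smallest possible is 0.1. The difference between the sets, −0.34, had an exact permutation p of 0.0645 (adjusted 0.193).

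**Figure D3:**
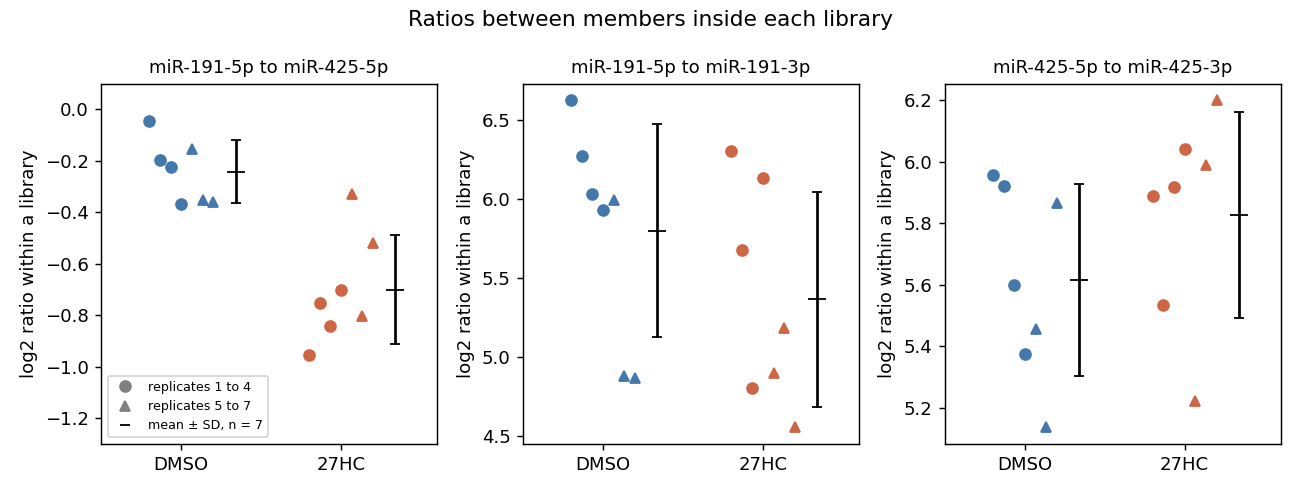
Log2 ratio of 2 members inside a library (vertical axis, a separate range in each panel, none starting at 0) in DMSO and 27HC libraries; symbols as in the plot of levels, with the mean and its SD (n = 7). For miR-191-5p to miR-425-5p 6 of the 7 libraries with 27HC lie under the lowest DMSO value of −0.37, whereas the groups overlap in both ratios of 5p to 3p arms.

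No difference in the proportion of the arms of a hairpin passed the test. miR-191-5p made up 98.3 ± 0.918% of the counts of its hairpin in DMSO and, with 27HC, 97.7 ± 1.08% (SD, n = 7). miR-425-5p made up 98.1 ± 0.435% and 98.4 ± 0.436%. The difference with 27HC in the log2 ratio of miR-191-5p to miR-191-3p was −0.43 (exact permutation p 0.247, adjusted 0.247). That in the ratio of miR-425-5p to miR-425-3p was 0.21 (exact permutation p 0.238, adjusted 0.247). Their differences within replicates 1 to 4 were −0.48 and 0.13, and within replicates 5 to 7 they were −0.37 and 0.32, with exact permutation p-values from 0.286 to 0.6. The difference for Mir191 was close in size to that between the major arms, but the SD of this ratio within a group was 0.67 in DMSO and 0.68 with 27HC.

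**Figure D4:**
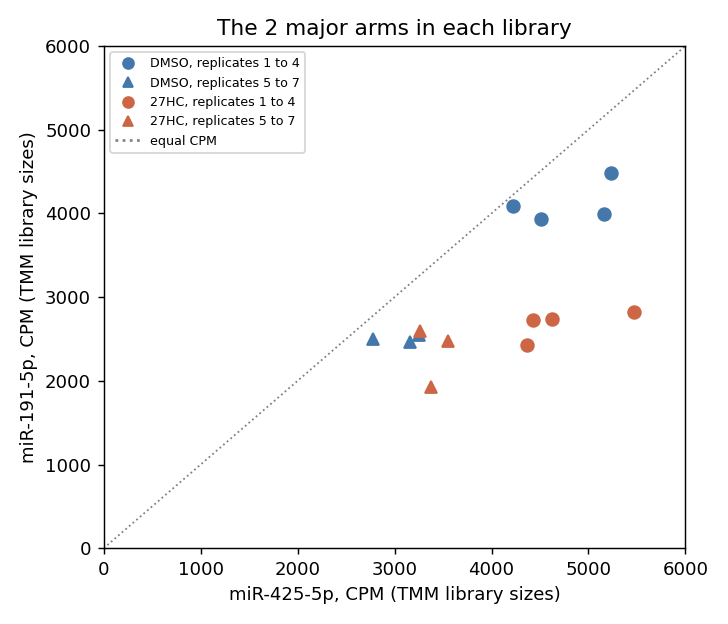
CPM of miR-191-5p (vertical axis) against CPM of miR-425-5p (horizontal axis, both with TMM library sizes) in each of the 14 libraries, coloured by treatment, with circles for replicates 1 to 4 and triangles for replicates 5 to 7; the dotted line marks equal CPM. All points lie under the line, and at 4223 CPM of miR-425-5p or more the 27HC libraries lie between 2430 and 2817 CPM of miR-191-5p and the DMSO libraries between 3934 and 4481 CPM.

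Each set of replicates holds both treatments, and no correlation between the levels of the major arms passed the test within either set, where the permutations took no account of treatment. Their log2 CPM had a Pearson r of 0.63 over the 14 libraries, which is a description only, since the sets differ in both. Within replicates 1 to 4 (8 libraries) r was 0.21 and Spearman's rho 0.29, with exact permutation p-values of 0.649 and 0.501, and r was −0.22 without the 2 libraries farthest from the median of miR-191-5p. Within replicates 5 to 7 (6 libraries) r was −0.26 and rho −0.2, with exact permutation p-values of 0.413 and 0.714, and r was −0.13 without the 2 farthest. After the mean of each treatment was subtracted within a set, r was 0.58 in replicates 1 to 4 and 0.0068 in replicates 5 to 7, given as a description with no test. The arms of Mir425 gave the highest r within a set, 0.80 in replicates 1 to 4 (rho 0.76, exact permutation p-values 0.0285 and 0.0368, r 0.93 without the 2 farthest). Adjusted over the 12 relations examined, its p-values were 0.343 and 0.441, and in replicates 5 to 7 r was −0.21.

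The names most like each major arm were taken by Pearson r of log2 CPM across the 14 libraries, among 235 tested names outside the cluster. They are a description, since the libraries share the sets of replicates and the treatment. For miR-191-5p these were miR-15b-5p (r 0.94), miR-142a-5p (0.88), miR-30b-5p (0.88), miR-103-3p (0.87) and miR-503-5p (0.87), against a median r of 0.089 over all 235. Of these 5, miR-142a-5p and miR-103-3p were called lower with 27HC, at −0.74 and −0.61 on the log2 scale (edgeR adjusted p 0.0223 and 0.00906), where 8.79% of all tested names were called lower. For miR-425-5p they were miR-30d-5p (r 0.94), miR-140-3p (0.88), miR-10a-5p (0.85), miR-339-5p (0.82) and miR-503-5p (0.82), against a median of 0.058. None of those 5 was called, where 12.6% of all tested names were, and their log2 fold changes ran from −0.40 to 0.018.

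Among 10 other miRNAs in common use as references, 1 was called higher and 1 lower with 27HC, against 12.6% of all tested names in either direction. These were miR-484 at 0.50 (SE 0.14, edgeR adjusted p 0.0216) and miR-103-3p at −0.61 (SE 0.14). The median log2 fold change of the 10 was 0.072 and their range −0.61 to 0.50, beside a median of 0.010 over all tested names. The list held miR-16-5p at 0.085 (SE 0.14), miR-93-5p at −0.11 (SE 0.094) and miR-25-3p at 0.035 (SE 0.081). The value of miR-191-5p, −0.44, thus lay within the range of the list but under 9 of its 10 members, and that of miR-425-5p, 0.038, lay near the median.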

How the data were processed

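The authors deposited 1 table of raw, whole-number counts of mature miRNAs. Per the labels' protocols, the miRNeasy Micro kit gave the vesicle RNA and the QIAseq miRNA kit the libraries. The submitters' processing notes list GRCm39 (mm39), R 4.1.2, edgeR and limma, with no role. The aligner, the counting rule, strand and use of molecular identifiers are not given in the sources used here, so a count may be of reads or of molecules. All columns and libraries were matched to labels, and 0 were left out. All 42 pairs of libraries within a group differed by more than sampling noise (lowest chi-square per degree of freedom 5.57).

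Groups were compared in edgeR 4.0.16 (R 4.3.3) by its quasi-likelihood test, with treatment as the only term, TMM scaling and filterByExpr (minimum count 10, minimum total 15), which left 239 names. Benjamini-Hochberg adjustment covered all tested names, and calls had an adjusted p under 0.05. The fit was tested on simulated data with larger changes than those of the members and no difference between the sets of replicates. That test therefore does not cover changes of the size seen here. Standard errors were derived from fold changes and F values. Log2 CPM had a prior count of 2. Alternatives used DESeq2 1.42.0 and limma 3.58.1, other scalings, filters and terms, and each library left out. The genes named are the members, the reference and marker lists, names sharing a seed and the 5 names most alike. The members, lists and sets of replicates were chosen with earlier results of these data known.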

Additional observations from a re-analysis of the deposited data

Results flagged for a closer look

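Of 18 groups of 7 libraries examined, over the members' CPM, their ratios, the share of the cluster and the library totals, a single one had a library standing apart, and about 0.9 would by chance. It was DMSO replicate 3, whose total of 871189 counts compares with 400585 in the second deepest of its group. It also had the highest miR-191-5p level, 4481 CPM. Without it the log2 fold change of miR-191-5p was −0.30 over all libraries, with an edgeR adjusted p of 0.274, and the log2 ratio of miR-191-5p to miR-425-5p differed by −0.46, with an exact permutation adjusted p of 0.0122. With the log2 library total as a covariate, the log2 fold change of miR-191-5p was −0.29 (edgeR adjusted p 0.121).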

How the results depend on the processing

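The number of calls over all names, 30, ran from 22 to 39 under 13 alternatives and from 21 to 34 with 1 library left out. The log2 fold change of miR-191-5p was negative under all 27 and was called under 7 of them. It was −0.53 with upper quartile scaling, −0.44 with library totals only, −0.55 with scaling to 10 reference miRNAs, which was chosen after seeing the data, −0.41 with the set of replicates as a term and −0.41 with the replicate block. It ran from −0.52 to −0.30 with 1 library left out, and from −0.16 to −0.015 within replicates 5 to 7. The replicate block gave 37 calls and a miR-425-5p value of 0.052, and an exact permutation of the signs of the paired differences, added after seeing the data, gave an adjusted p of 0.0469 for the ratio of miR-191-5p to miR-425-5p. The numbers were not taken as pairs, because the labels do not say what they mark. Deviations from the group mean had an r of 0.0686 to 0.6 between libraries of the same number. Of the 7 numbers, 3 correlated best with their own number. With deviations taken from the mean of each group within a set of replicates, r ran from −0.111 to 0.292. These values do not settle whether the libraries are paired. The replicate block changed no other member's call.

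The fold change of miR-191-3p, close to 0, turned to −0.072 with upper quartile scaling, −0.021 with library totals only, −0.063 with the reference miRNAs, −0.082 with no filter, −0.026 with the term for the set, −0.14 with the library total as covariate and −0.19 with limma-voom. It ran from −0.089 to 0.22 with 1 library left out, and from −0.52 to 0.080 within replicates 1 to 4 and −0.055 to 0.40 within replicates 5 to 7. That of miR-425-5p turned to −0.042 with upper quartile scaling, −0.069 with the reference miRNAs and −0.081 with no filter, and it was 0.22 with the library total as covariate. With 1 library left out it ran from −0.030 to 0.17, and from −0.035 to 0.090 within replicates 1 to 4. That of miR-425-3p ran from −0.23 to 0.011 with 1 library left out, and from −0.29 to 0.034 within replicates 1 to 4. The median of all names was −0.19 with no filter, where all 1695 names were tested, and there miR-191-5p, at −0.57, and miR-425-3p, at −0.30, lay under it. The cause of these changes of sign was not tested. The ratio of miR-191-5p to miR-425-5p kept its direction and its side of the threshold under all 18 alternatives, from −0.52 to −0.42. Counts of the 3p arms were low, at 4 to 74 in a library, and the part of depth in their wide intervals was not tested.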
